A study of Homo sapiens with 22 samples.

Results

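The transforming growth factor beta (TGF-beta) genes were examined for open chromatin and CTCF binding in human HFFc6 fibroblasts and H1 embryonic stem cells. The set comprised 10 of the 19970 protein-coding genes annotated by RefSeq, namely the ligand genes TGFB1, TGFB2, TGFB3 and INHBA, the latency gene LTBP1, the receptor genes TGFBR1, TGFBR2 and TGFBR3, and the SMAD genes SMAD3 and SMAD7. Every region of 4 deposited peak lists that overlapped the body of one of these genes, or the 50 kb on either side of it, was kept. This gave 240 of the 155746 HFFc6 ATAC regions, 192 of the 189982 H1 ATAC regions, 157 of the 82297 HFFc6 CTCF regions and 107 of the 104785 regions of a CTCF list named for human embryonic stem cells. The 10 genes were listed by name, and no region fell in the windows of more than 1 of them. A region was called shared if it overlapped a region of the other list of the same kind by at least 1 bp, and specific to its list ("HFFc6-only", "H1-only") otherwise.

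HFFc6 is a single subclone of human foreskin fibroblasts immortalised with telomerase, and H1 was derived from a human embryo and is pluripotent. No treatment is named for either. Accessible DNA was cut with the transposase Tn5 (ATAC-seq) in 8 HFFc6 libraries, carrying 2 R and 4 T labels of unstated meaning, and in 2 H1 libraries. CTCF, an insulator protein at which cohesin stops to form loops, was mapped in 2 HFFc6 libraries by Cut&Tag, in which an antibody directs Tn5 to the protein. These 2 libraries are titled HFF1 and labelled HFFc6. No sample label describes the stem cell CTCF list, so its assay and its libraries are unknown here and it goes by the name of the hESC-named CTCF list below. Each list is a single call with no values per library. No test between the cell lines was therefore possible, the depth behind the lists is unknown, and every difference below is a difference between lists.

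TGF-beta ligands are secreted in a latent complex with their own propeptide and a latent TGF-beta binding protein such as LTBP1, and must be released before they can signal. Active ligand binds the type II receptor TGFBR2, which phosphorylates the type I receptor TGFBR1, while TGFBR3 (betaglycan) is a co-receptor that presents ligand, TGFB2 in particular. The activated type I receptor phosphorylates SMAD2 and SMAD3, which enter the nucleus with SMAD4 and bind DNA, and SMAD7 is a feedback inhibitor that blocks the receptor. INHBA encodes the subunit of activin A, which signals through SMAD2 and SMAD3 from its own receptors. The pathway drives matrix production in fibroblasts, and activin signalling helps to maintain human pluripotent stem cells.

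The DNA upstream of starts is shown where the lists differed, and for contrast where all 4 lists had a region, for 8 of the 27 RefSeq starts of the 10 genes. Each line gives the 250 bases before a start, 5′ to 3′ on the strand of the gene, from RefSeq's GRCh38.p14 assembly. Capitals mark matches to 5 short motifs on either strand, namely the SMAD-binding core CAGAC, the AP-1 site TGANTCA, the CTCF core AGGNGGC, the TATA box TATAAA and the GC box GGGCGG, of which the CTCF core and the GC box can overlap. TGFB2 and TGFBR2 had a region of all 4 lists at the start. The LTBP1 pair contrasts the first start of the gene with an internal start that had a CTCF region in HFFc6 alone. SMAD3 start 2 and SMAD7 start 3 were open in HFFc6 alone, SMAD3 start 5 had a region in H1 alone, and SMAD3 start 3 holds an AP-1 site.
TGFB2 upstream window (chr1:218345086-218345335, plus strand): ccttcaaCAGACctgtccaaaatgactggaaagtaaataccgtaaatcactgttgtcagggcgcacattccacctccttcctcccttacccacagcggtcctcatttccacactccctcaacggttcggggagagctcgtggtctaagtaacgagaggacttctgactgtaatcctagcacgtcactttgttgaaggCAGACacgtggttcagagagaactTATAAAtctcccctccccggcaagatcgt
LTBP1 upstream window, first start (chr2:32946703-32946952, plus strand): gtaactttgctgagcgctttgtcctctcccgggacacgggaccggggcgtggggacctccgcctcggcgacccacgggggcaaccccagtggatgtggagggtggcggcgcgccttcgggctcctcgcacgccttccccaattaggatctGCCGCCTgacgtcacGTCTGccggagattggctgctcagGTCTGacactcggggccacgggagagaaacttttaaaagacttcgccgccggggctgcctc
LTBP1 upstream window, internal start (chr2:33134119-33134368, plus strand): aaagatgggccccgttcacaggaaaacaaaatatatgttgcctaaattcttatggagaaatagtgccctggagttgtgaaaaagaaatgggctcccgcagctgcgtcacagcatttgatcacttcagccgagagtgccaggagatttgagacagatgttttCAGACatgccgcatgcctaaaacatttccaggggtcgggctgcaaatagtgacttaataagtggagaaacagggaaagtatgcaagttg
TGFBR2 upstream window (chr3:30606106-30606355, plus strand): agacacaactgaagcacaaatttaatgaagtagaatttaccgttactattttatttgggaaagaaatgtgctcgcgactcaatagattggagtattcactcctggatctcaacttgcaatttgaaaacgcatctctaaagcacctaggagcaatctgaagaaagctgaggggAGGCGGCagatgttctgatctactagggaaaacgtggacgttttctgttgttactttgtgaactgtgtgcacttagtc
SMAD3 upstream window, start 2 (chr15:67098429-67098678, plus strand): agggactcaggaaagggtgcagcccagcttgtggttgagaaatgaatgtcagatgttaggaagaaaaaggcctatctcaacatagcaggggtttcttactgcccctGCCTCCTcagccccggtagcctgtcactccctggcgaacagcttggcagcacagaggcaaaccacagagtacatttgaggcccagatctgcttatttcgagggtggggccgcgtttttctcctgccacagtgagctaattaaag
SMAD3 upstream window, start 3 (chr15:67125492-67125741, plus strand): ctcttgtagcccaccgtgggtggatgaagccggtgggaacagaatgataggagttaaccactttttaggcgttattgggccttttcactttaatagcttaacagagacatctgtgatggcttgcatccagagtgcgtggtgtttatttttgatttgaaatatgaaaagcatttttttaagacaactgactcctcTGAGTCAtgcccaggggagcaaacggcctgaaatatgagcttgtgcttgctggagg
SMAD3 upstream window, start 5 (chr15:67166281-67166530, plus strand): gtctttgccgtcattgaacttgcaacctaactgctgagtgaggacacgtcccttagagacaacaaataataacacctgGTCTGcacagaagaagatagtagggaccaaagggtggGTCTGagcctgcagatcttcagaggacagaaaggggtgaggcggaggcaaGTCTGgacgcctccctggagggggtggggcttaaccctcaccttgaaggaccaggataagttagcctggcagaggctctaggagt
SMAD7 upstream window, start 3 (chr18:48942808-48943057, minus strand): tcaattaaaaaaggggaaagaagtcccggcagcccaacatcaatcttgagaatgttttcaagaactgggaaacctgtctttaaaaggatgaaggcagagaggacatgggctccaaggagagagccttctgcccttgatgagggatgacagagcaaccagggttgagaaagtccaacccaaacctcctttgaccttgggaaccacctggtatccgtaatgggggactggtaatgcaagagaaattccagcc

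Counted over the 300 bases from 250 before to 50 after each start, the SMAD-binding core was present at 15 of the 27 starts (55.6%), against 44.9% of the 22131 starts of protein-coding genes in the table. The AP-1 site was present at 2 starts (7.41%, against 6.15%), the CTCF core at 11 (40.7%, against 41.2%) and the TATA box at 4 (14.8%, against 9.46%). The GC box was present at 8 of the 27 (29.6%), against 56.3% of all starts. Several of these windows overlap, since TGFBR1 alone has 8 starts close together, so the 27 are not independent. These matches describe letters in a window and show no binding.

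The labels of the lines were checked on marker genes by the same counts. Of 8 pluripotency genes, 7 (87.5%) had more H1-only than HFFc6-only ATAC regions, against 41.1% of all protein-coding genes, and DNMT3B had equal numbers. Among the 5 with a start in the table, L1TD1, ZFP42 and DNMT3B were open there in H1 alone, against 7.92% of all genes. SOX2 was open there in both lines and NANOG in neither. Of 8 fibroblast genes, 5 (62.5%) had more HFFc6-only regions, against 48.4% of all genes, and VIM, THY1 and FAP had more H1-only regions. All 3 keratinocyte genes (KRT5, KRT14 and TP63) had more H1-only regions, with the start of KRT5 open in H1 alone and that of TP63 in HFFc6 alone. Of 3 endothelial genes, TEK and CDH5 had 16 and 6 more HFFc6-only than H1-only regions and PECAM1 had equal numbers. Of 3 melanocyte genes, MITF and MLANA had 12 and 4 more HFFc6-only regions and TYR had 5 more H1-only regions. Of 3 blood genes, PTPRC had 10 and CD3E 1 more H1-only regions, and SPI1 had equal numbers. A peak near a gene is not its expression, and no RNA was measured in the lists used here.

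At the TGF-beta genes the HFFc6-only regions outnumbered the H1-only regions at every gene but TGFB3. More HFFc6-only than H1-only ATAC regions were found at 9 of 10 genes, against 48.4% of all protein-coding genes, and TGFB3, 1 of 10, had more H1-only regions, against 41.1% of all genes. The median gene of the 10 had 12.5 HFFc6-only and 9.5 H1-only regions, and the median difference was 5.5 regions, against 0 over all genes. Set against length, the medians were 8.46 HFFc6-only and 5.24 H1-only regions per 100 kb, while over all protein-coding genes they were 3.77 and 3.65. The medians of the 10 genes thus lay above those of all genes for both kinds of list-specific region. Single genes lay below, with 1.60 HFFc6-only regions per 100 kb at TGFB3 and 2.43 H1-only regions per 100 kb at TGFB1. The HFFc6-only regions at these genes had a median width of 776 bp and the H1-only regions one of 276.5 bp. In the whole lists the HFFc6-only median was 629 bp and the H1-only median 268 bp.

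**Figure D1:**
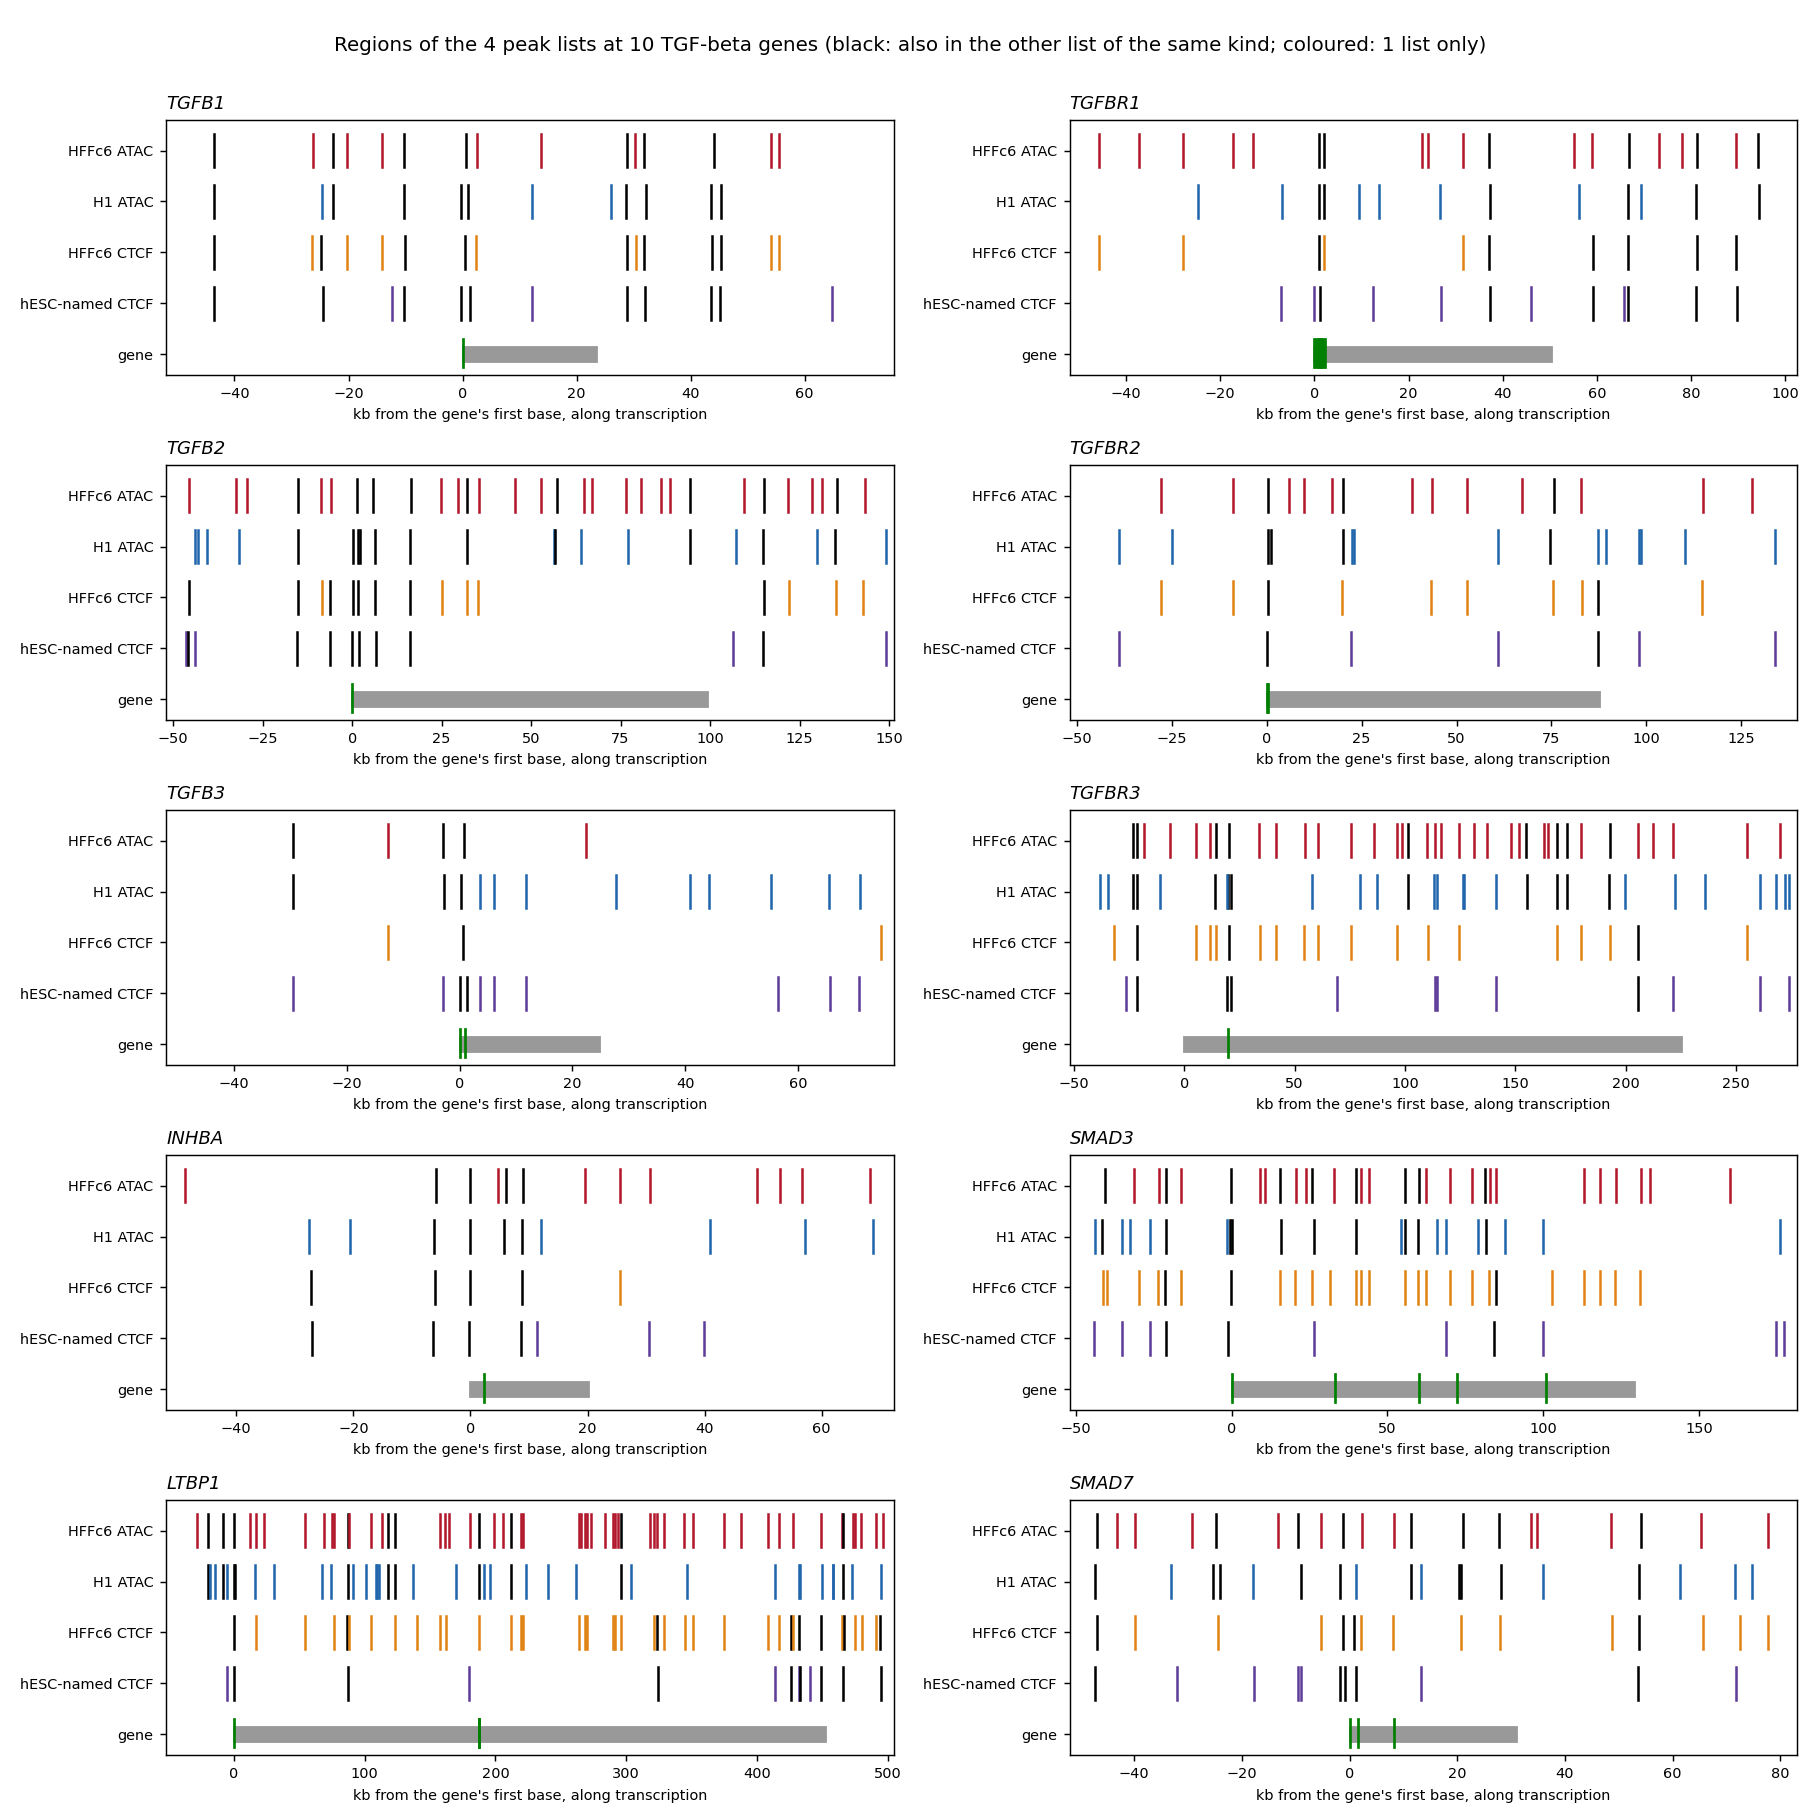
Positions of the regions of the 4 lists at each of the 10 genes, by the kb from the gene's first base along its transcription (horizontal axis), with 1 row per list; black ticks are regions also in the other list of the same kind, coloured ticks are regions of 1 list only, the grey bar is the gene body and green ticks are RefSeq starts. TGFB3 has 2 red HFFc6-only and 9 blue H1-only ATAC ticks, while LTBP1 has 46 red and 29 blue ticks over its long body.

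The map of regions by gene shows where these calls lie. Of the 172 HFFc6-only ATAC regions at the genes, 107 lay in the gene bodies, 28 in the upstream and 37 in the downstream flanks, and 3 lay within 1 kb of a start of the gene itself. Of the 114 H1-only regions, 56 lay in the bodies, 24 upstream and 34 downstream, and 3 lay at a start. Of the shared regions, 12 of 68 in HFFc6 (17.6%) and 16 of 78 in H1 (20.5%) lay at a start of the gene. Counted at a start of any gene, 17 of the 68 and 21 of the 78 did, near the shares of all shared regions, 23.9% in HFFc6 and 25.8% in H1. Of the HFFc6-only regions 4 of 172, and of the H1-only regions 3 of 114, lay at a start of any gene. In the whole lists, 2.89% and 3.67% of such regions did.

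The share of regions found in the other cell line differed by direction. Of the HFFc6 ATAC regions at the 10 genes, 28.3% (68 of 240, 95% Wilson interval 23.0 to 34.3) overlapped an H1 region, against 34.7% of the whole HFFc6 list. Of the H1 ATAC regions, 40.6% (78 of 192, interval 33.9 to 47.7) overlapped an HFFc6 region, against 31.8% of the whole H1 list. The HFFc6 share lay below that of its whole list and the H1 share above that of its own. These intervals cover counting error only, and regions of 1 gene are not independent. Taken gene by gene, the median share was 30.4% in HFFc6 and 42.7% in H1, against 45.5% and 50% over all protein-coding genes. Against gene windows, then, both shares lay below the background, and the direction of the H1 contrast depends on which background is used. A −log10 q of 10 was reached by 91.25% of the HFFc6 regions at these genes, against 85.2% of the whole HFFc6 list, and by 51.6% of the H1 regions, against 48.4% of the whole H1 list. The lists rest on 8 HFFc6 and 2 H1 libraries, and the part of call strength and library number in the surplus of HFFc6-only regions was not tested. A limit on q removes more of the H1 list, so it raises the HFFc6-only counts relative to the H1-only counts by its construction.

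**Figure D2:**
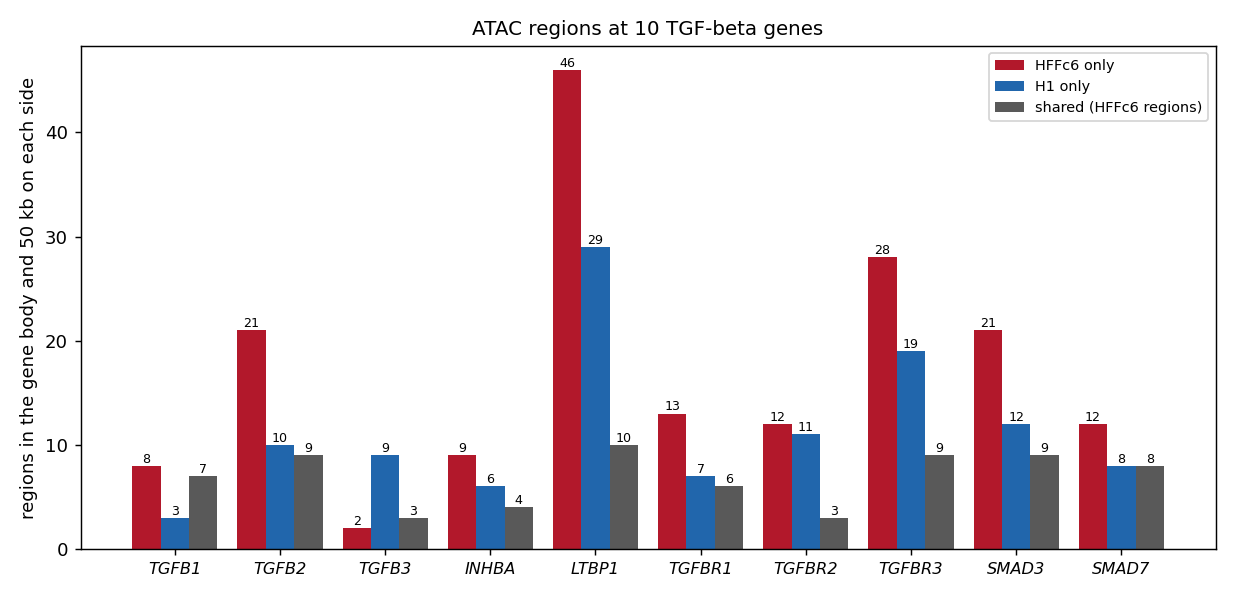
Numbers of ATAC regions (vertical axis) in the body and 50 kb flanks of each of the 10 genes (horizontal axis), as bars for HFFc6-only, H1-only and shared regions, the last counted in the HFFc6 list. The HFFc6-only bar is the taller of the first pair at all genes but TGFB3, by 1 region at TGFBR2 and by 17 at LTBP1.

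Among the ligand genes, TGFB2 had the most HFFc6-only chromatin. TGFB2 (chr1:218345336-218444619, plus strand) had 21 HFFc6-only and 10 H1-only ATAC regions, and a further 9 HFFc6 regions were shared. Most of this surplus lay inside the gene, with 11 HFFc6-only and 3 H1-only regions in the body. Its HFFc6-only region of highest q lay 122 kb downstream of the start at chr1:218466438-218467730, with a fold enrichment of 12.2. Fold enrichment here is the authors' peak caller's value for a peak over its background, and it is compared only within a list. The most significant H1-only region, at chr1:218494197-218494854 beyond the 3′ end, had a fold enrichment of 17.9 and was within the top 2.28% of the H1 list by q. At the start itself the 4 lists each had a region, with ATAC fold enrichments of 8.88 in HFFc6 and 6.32 in H1, and CTCF fold enrichments of 6.90 (HFFc6) and 4.12 (hESC-named list).

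TGFB1, the prototype ligand, lies in a gene-dense stretch, and its counts belong partly to its neighbours. TGFB1 (chr19:41330323-41353922, minus strand) had 8 HFFc6-only and 3 H1-only ATAC regions, with 7 HFFc6 regions shared. Its window also holds parts of 6 other protein-coding genes, and 4 of its 15 HFFc6 ATAC regions lay at the start of a neighbour. When regions inside other genes were left out, 2 HFFc6-only and 2 H1-only regions remained. CCDC97, not TGFB1, held the HFFc6-only region of highest q, chr19:41323025-41324426, with a fold enrichment of 7.26. The TGFB1 start was covered by 1 wide HFFc6 ATAC region of 8.85-fold enrichment, while the nearest H1 region, of 6.52-fold enrichment, lay 183 bp upstream of it.

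TGFB3 ran the other way. TGFB3 (chr14:75958097-75983011, minus strand) had 2 HFFc6-only and 9 H1-only ATAC regions, and 3 HFFc6 regions were shared, 1 of them at its starts. Per 100 kb it had 4.00 HFFc6 regions, the lowest of the 10 genes, and 9.61 H1 regions. The H1-only region of highest q, chr14:75911974-75912168 with a fold enrichment of 13.2, lay in the neighbour TTLL5, and 3 of the 9 H1-only regions lay in the TGFB3 body. The HFFc6-only region of highest q was chr14:75995074-75996343, 12.8 kb upstream of the start in IFT43, with a fold enrichment of 13.1. The surplus of H1-only regions at TGFB3 shrank to 1 (3 HFFc6-only and 4 H1-only regions) when only regions with a −log10 q of at least 10 were kept.

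INHBA, the activin A subunit gene, has no protein-coding neighbour in its window. INHBA (chr7:41685114-41705406, minus strand) had 9 HFFc6-only and 6 H1-only ATAC regions, with 4 HFFc6 regions shared. Its calls were the weakest of the HFFc6 ATAC list among the 10 genes, with a median fold enrichment of 3.67 and 69.2% of regions past a −log10 q of 10. The HFFc6-only region of highest q lay 25.6 kb downstream of the gene's first base, at chr7:41679327-41680498, with a fold enrichment of 14.9, and also had an HFFc6-only CTCF region. The region at the 5′ end of the gene was in all 4 lists, with ATAC fold enrichments of 9.94 in HFFc6 and 14.6 in H1.

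LTBP1, which tethers latent TGF-beta to the matrix, is the longest of the 10 genes and had the most regions. LTBP1 (chr2:32946953-33399509, plus strand) had 46 HFFc6-only and 29 H1-only ATAC regions, with 10 HFFc6 regions shared, and 39 of the HFFc6-only and 22 of the H1-only regions lay in its body. Per 100 kb it had 10.1 HFFc6 and 7.24 H1 regions, both below the medians of the 10 genes (11.7 and 9.24). Only 17.9% of its HFFc6 regions were in H1, the lowest share of the 10. The HFFc6-only region of highest q, chr2:33051466-33052528 in the gene body 105 kb from the first start, had a fold enrichment of 16.7 and carried an HFFc6-only CTCF region of 11.5-fold enrichment. The highest fold enrichment of any HFFc6 ATAC region at the 10 genes, 20.3, was that of chr2:33354768-33355584 toward the 3′ end, a region named after its value was seen. The H1-only region of highest q, chr2:33396444-33396748, lay close to the 3′ end of the gene with a fold enrichment of 17.0.

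TGFBR1 (chr9:99103647-99154192, plus strand), the type I receptor gene, had 13 HFFc6-only and 7 H1-only ATAC regions, with 6 HFFc6 regions shared. Its surplus lay outside the gene, since the body held 3 HFFc6-only and 3 H1-only regions. Upstream by 27.9 kb lay its HFFc6-only region of highest q, chr9:99075192-99076150, with a fold enrichment of 14.7 and an HFFc6 CTCF region. The H1-only region of highest q, chr9:99159595-99160200, lay just past the 3′ end with a fold enrichment of 13.0 and no CTCF region in either list.

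TGFBR2 (chr3:30606356-30694142, plus strand), the type II receptor gene, was nearly even in counts, with 12 HFFc6-only and 11 H1-only ATAC regions and 3 HFFc6 regions shared. The difference of 1 region turned to -2 when each region was given to the gene with the nearest end (3 HFFc6-only and 5 H1-only), so its direction is not settled. Its start had the most significant ATAC calls of any start of the 10 genes in both lines, with fold enrichments of 15.5 in HFFc6 (the top 2.21% of the list by q) and 14.2 in H1 (the top 3.82%). The HFFc6-only region of highest q, chr3:30658088-30659973, lay 53.1 kb into the gene with a fold enrichment of 12.7 and an HFFc6-only CTCF region of 11.1. The H1-only region of highest q was chr3:30693586-30693777 at the 3′ end of the gene, with a fold enrichment of 19.8. There, both CTCF lists had a region (9.89-fold in HFFc6 and 18.6-fold in the hESC-named list), and the HFFc6 ATAC list had none.

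TGFBR3 (chr1:91680343-91906002, minus strand), the co-receptor gene, had 28 HFFc6-only and 19 H1-only ATAC regions, with 9 HFFc6 regions shared. In its body there were 24 HFFc6-only and 11 H1-only regions. The HFFc6-only region of highest q, chr1:91844776-91845941, lay 60.9 kb into the gene with a fold enrichment of 18.4, and was within the top 1.10% of the HFFc6 list by q, the highest rank of the HFFc6-only ATAC regions named here. The H1-only region of highest q, chr1:91764503-91764893, lay deeper in the gene with a fold enrichment of 16.4. The annotated 5′ end of the gene had no region of any list within 1 kb, and the RefSeq start 19.9 kb inside the gene had a region of all 4.

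SMAD3 (chr15:67065602-67195169, plus strand), the signal transducer, had 21 HFFc6-only and 12 H1-only ATAC regions, with 9 HFFc6 regions shared. The body held 15 HFFc6-only and 6 H1-only regions. When only regions with a −log10 q of at least 10 were kept, the difference grew to 19, with 25 HFFc6-only and 6 H1-only regions. Its HFFc6-only region of highest q, chr15:67177932-67179300, lay 113 kb into the gene with a fold enrichment of 13.0. The H1-only region of highest q, chr15:67164869-67166285, had a fold enrichment of 10.7, the highest of the H1 list at SMAD3, and lay next to an internal start.

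SMAD7 (chr18:48919853-48950965, minus strand), the inhibitor, had 12 HFFc6-only and 8 H1-only ATAC regions, with 8 HFFc6 regions shared. It had the densest chromatin calls of the 10 genes in both lines, 15.3 HFFc6 and 13.7 H1 regions per 100 kb, with no protein-coding neighbour in its window. The surplus lay in the flanks, since the body held 2 HFFc6-only and 2 H1-only regions. Its HFFc6-only region of highest q, chr18:48942311-48943270, covered an internal start. Its H1-only region of highest q, chr18:48889318-48889845, lay downstream of the gene with a fold enrichment of 9.82.

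**Figure D3:**
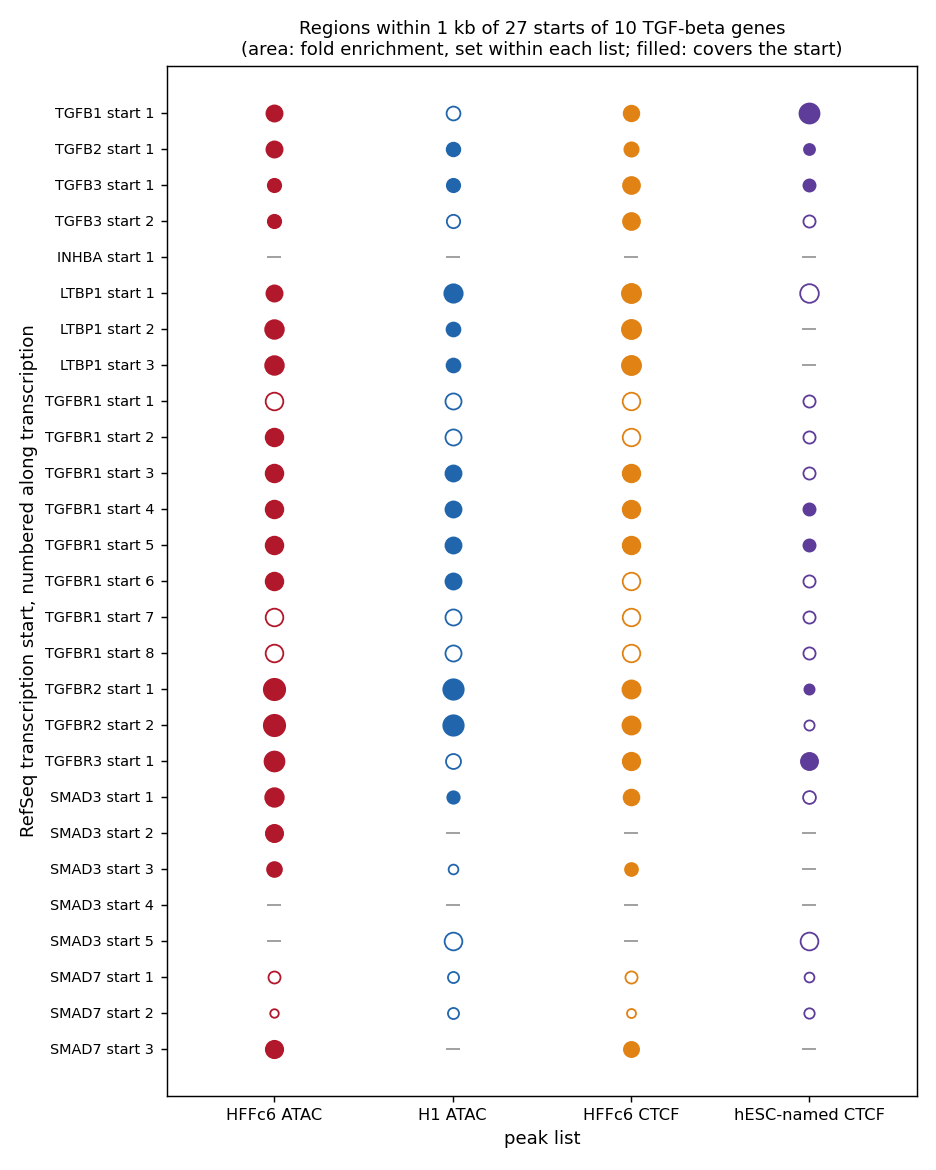
Regions within 1 kb of each of the 27 RefSeq starts of the 10 genes (rows, numbered along transcription) in each of the 4 lists (columns); the area of a circle stands for the fold enrichment, scaled within each list, a filled circle covers the start, an open one lies within 1 kb of it and a dash marks no region. Each circle is 1 region, which is not always the one nearest the start. At TGFBR1 starts 7 and 8 the HFFc6 CTCF circle is open, although another region of that list (chr9:99105496-99106053) covers both. Dashes stand in all 4 columns for the INHBA start and for SMAD3 start 4, and in both stem cell columns for SMAD3 start 2 and SMAD7 start 3.

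The starts themselves were mostly open in both lines. An ATAC region lay within 1 kb of a start in both HFFc6 and H1 for 9 of 10 genes, against 71.9% of the 15811 protein-coding genes with a start in the table. The exception was INHBA, whose single start in the table lies 2.32 kb inside the gene and had no region of any list, while its annotated 5′ end had a region in all 4. Counted by start, 22 of 27 (81.5%) were open in both lines, against 68.0% of all starts, and 2 (7.41%) in neither, against 17.3%, but 8 of the 27 belong to the TGFBR1 cluster and share its regions.

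At SMAD3, the 5 starts differed in which lists reached them. Start 1, at the 5′ end, was open in both lines, with fold enrichments of 11.7 in HFFc6 and 5.24 in H1. Start 2, which lies 33.1 kb into the gene, was covered by an HFFc6-only ATAC region (chr15:67097906-67099065) of 10.1-fold enrichment and had no CTCF region. Start 3, with the AP-1 site shown above, had a 7.48-fold region in HFFc6, while the H1 region of 3.24-fold lay 267 bp from it and came 97.1% of the way down the H1 list by q. Start 5, which lies 101 kb into the gene, had no HFFc6 region, while the H1-only ATAC region ended 246 bp before it and an hESC-named-only CTCF region of 10.7-fold enrichment ended 364 bp before it.

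SMAD7 start 3, which lies 8.16 kb into the gene, was covered by an HFFc6-only ATAC region of 10.3-fold enrichment, within the top 7.97% of its list by q, and by an HFFc6-only CTCF region of 7.81-fold enrichment. None of the 5 motifs occurs in the 250 bases shown for it. The 2 other SMAD7 starts had modest ATAC fold enrichments, 4.90 and 2.47 in HFFc6 and 4.18 at both in H1, and none of these regions covered the start. By q the HFFc6 regions were within the top 20.8% (start 1) and the top 58.5% (start 2) of their list. The H1 region was within the top 41.5% of its own. The starts open in HFFc6 alone were thus 2 of 27 (SMAD3 start 2 and SMAD7 start 3), against 5.77% of all starts. The start open in H1 alone was 1 of 27 (SMAD3 start 5), against 8.87% of all starts, so neither count stood far from its background.

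LTBP1 is known to be made in a long and a short form from separate promoters, although the table used here does not say which start belongs to which form. At the first start, HFFc6 and H1 ATAC regions had fold enrichments of 8.91 and 11.5, within the top 17.1% and the top 7.34% of their lists by q. At the internal start 187 kb downstream (start 2 of 3, with start 3 in the same regions) the fold enrichments were 11.8 in HFFc6, within the top 5.71%, and 6.55 in H1, within the top 45.5%. By rank within each list, the internal start stood above the first in HFFc6 and below it in H1. The CTCF lists differed there as well. At the first start there was a region of 12.5-fold enrichment in HFFc6 and one of 11.8-fold in the hESC-named list, while at the internal start the HFFc6 CTCF region (chr2:33133748-33135061) of 12.4-fold enrichment had no counterpart in the hESC-named list.

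CTCF regions showed a like imbalance. Of the 10 genes, 7 had more HFFc6-only than hESC-named-only CTCF regions, against 36.8% of all protein-coding genes, and 3 (TGFB3, INHBA and TGFBR1) had more hESC-named-only regions, against 48.6% of all genes. The median difference was 3.5 regions, against 0 over all genes. SMAD3 had 23 HFFc6-only and 8 hESC-named-only CTCF regions, with 3 shared, and LTBP1 had 31 HFFc6-only and 5 hESC-named-only regions, with 8 shared. TGFBR3 had 16 HFFc6-only and 8 hESC-named-only regions, and SMAD7 had 11 and 6. At TGFB3 the counts were 2 HFFc6-only and 8 hESC-named-only regions, and at INHBA 1 and 3. The 4 remaining genes had 4 to 8 HFFc6-only and 3 to 6 hESC-named-only regions.

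**Figure D4:**
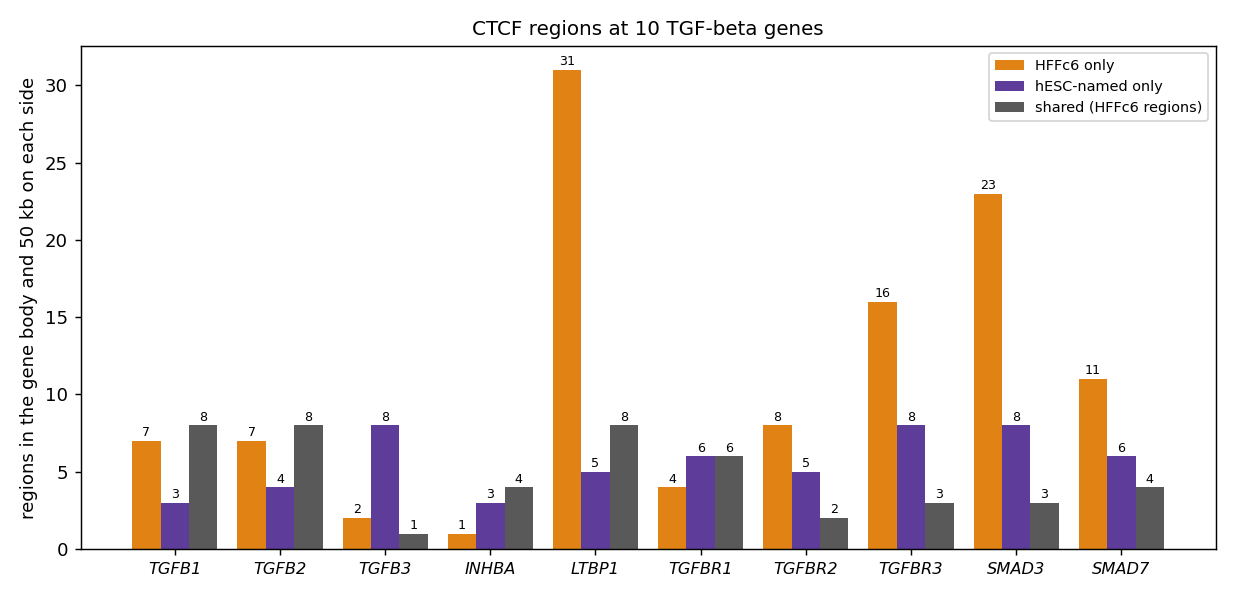
Numbers of CTCF regions (vertical axis) in the body and 50 kb flanks of each of the 10 genes (horizontal axis), as bars for HFFc6-only, hESC-named-only and shared regions, the last counted in the HFFc6 list. LTBP1 and SMAD3 have the tallest HFFc6-only bars, with 31 and 23 regions, while the hESC-named-only bar is taller at TGFB3, INHBA and TGFBR1.

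Set against the whole lists, the share of CTCF regions found in the other list was low in HFFc6 and not in the hESC-named list. Of the HFFc6 CTCF regions, 29.9% (47 of 157, interval 23.3 to 37.5) were in the hESC-named list, against 50.9% of the whole HFFc6 CTCF list. Of the hESC-named regions, 47.7% (51 of 107, interval 38.4 to 57.0) were in the HFFc6 list, against 41.3% of the whole hESC-named list. The HFFc6 share ranged from 11.5% at SMAD3 (3 of 26) to 80% at INHBA (4 of 5). Per gene, the HFFc6 share had a median of 30% at the 10 genes, where all protein-coding genes had 62.5%. For hESC-named regions the per-gene median was 47.7%, where all protein-coding genes had 57.1%. With genes as the background, both CTCF shares were therefore the lower ones. Whether the hESC-named share counts as low thus turns on the choice of background. As a plain count, shared CTCF regions per gene were close to those elsewhere. The median over the 10 genes was 4 in the HFFc6 list and 4.5 in the hESC-named one. Over all protein-coding genes it was 4 in each. Set against length, shared regions were sparser at the 10 genes. Their median was 2.25 per 100 kb in the HFFc6 list, against 2.83 over all protein-coding genes. In the hESC-named list it was 2.46 per 100 kb, against 2.91. The median fold enrichment was 4.85 for the HFFc6-only and 7.66 for the shared regions of the HFFc6 list, and the whole list showed a like contrast (4.69 and 8.19). In the hESC-named list it was 4.18 for the regions specific to it and 10.3 for the shared ones (5.07 and 12.3 in the whole list).

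Some of these shared CTCF regions were among the highest calls at the genes. The one of highest q was that at the 5′ end of INHBA (chr7:41704912-41705982), with a fold enrichment of 14.9, within the top 1.63% of the HFFc6 CTCF list by q. At TGFB3 the shared region over both starts (chr14:75981630-75983057) had a fold enrichment of 9.77 and was within the top 3.10%. At TGFB1 the region of highest q (chr19:41307965-41309341) lay at the start of its neighbour CCDC97, within the top 3.45%. At TGFBR1 it lay 81.2 kb downstream of the first base (chr9:99184470-99185383), with a fold enrichment of 12.6. SMAD7 had its shared region of highest q 47.4 kb upstream (chr18:48996945-48998782), with a fold enrichment of 6.06.

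Of the HFFc6-only CTCF regions 6 of 110, and of the hESC-named-only regions 3 of 56, lay at a start of any gene, against 7.55% and 5.63% of such regions in the whole lists. Among the HFFc6-only CTCF regions of highest q at each gene, those of LTBP1 and SMAD7 lay at their internal starts, as given above. That of TGFBR1 (chr9:99105496-99106053, 7.67-fold) covered starts 7 and 8 of its cluster. At TGFB1, TGFB3, INHBA and TGFBR2 the region fell in the same place as the HFFc6-only ATAC region of highest q, with CTCF fold enrichments of 3.51, 8.82, 6.95 and 11.1. At TGFBR3 it was chr1:91830108-91830970 (11.7-fold), 75.6 kb into the gene and also open in HFFc6 alone. At TGFB2 (chr1:218376938-218377773, 9.36-fold) and SMAD3 (chr15:67105334-67105863, 6.35-fold) it lay inside the gene in chromatin open in both lines.

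Of the hESC-named-only CTCF regions of highest q, 6 lay in H1 ATAC regions. These were chr18:48959667-48960169 upstream of SMAD7 (12.3-fold), the SMAD3 region next to start 5, chr14:75979200-75979634 in TGFB3 (8.13-fold), chr3:30704284-30704719 past TGFBR2 (7.66-fold), chr2:32941209-32941662 upstream of LTBP1 (7.24-fold) and chr1:218494111-218495064 past TGFB2 (6.78-fold). The last covered the H1-only ATAC region of highest q at TGFB2. At TGFB1, INHBA, TGFBR1 and TGFBR3 the region had no ATAC call in either line, and fold enrichments were 3.36, 3.45, 4.69 and 7.37.

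At starts, CTCF regions were present in both lists for 9 of 10 genes, against 62.5% of the genes with a start in the table, and INHBA was again the exception by its table start. Counted by start, HFFc6 alone had a CTCF region at 4 of 27 (LTBP1 starts 2 and 3, SMAD3 start 3 and SMAD7 start 3), against 8.74% of all starts. The hESC-named list alone had one at 1 of 27 (SMAD3 start 5), against 8.55%. The 4 HFFc6-alone starts come from 3 regions.

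The HFFc6 CTCF list followed open chromatin closely at these genes, as it did over the whole list. Of the HFFc6 CTCF regions, 91.1% (143 of 157, interval 85.6 to 94.6) overlapped an HFFc6 ATAC region, against 85.0% of the whole list. Of the hESC-named CTCF regions, 70.1% (75 of 107, interval 60.8 to 77.9) overlapped an H1 ATAC region, against 72.6% of the whole list. Among the HFFc6-only CTCF regions, 77.3% (85 of 110) lay in chromatin open in HFFc6 and not in H1, against 70.2% of such regions in the whole list. Of those specific to the hESC-named list, 62.5% (35 of 56) lay in H1 ATAC regions, against 64.7%.

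Seen from the open chromatin, 51.7% of the HFFc6-only ATAC regions at the genes (89 of 172, interval 44.3 to 59.1) held an HFFc6 CTCF region, against 30.1% of the HFFc6-only ATAC regions of the whole list. Of the shared HFFc6 ATAC regions, 75% (51 of 68) held one, against 69.8%. In H1, 34.2% of the H1-only ATAC regions (39 of 114, interval 26.1 to 43.3) held an hESC-named CTCF region, against 30.1%, and so did 50% of the shared regions (39 of 78), against 65.2%. Cut&Tag and ATAC-seq both cut with Tn5, and the part of that in the HFFc6 overlap was not tested. The HFFc6-only ATAC regions at the genes were also wider (776 bp at the median, against 629 bp in the list) and higher (6.15-fold at the median, against 5.26-fold), and the part of this in the overlap was not tested either.

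**Figure D5:**
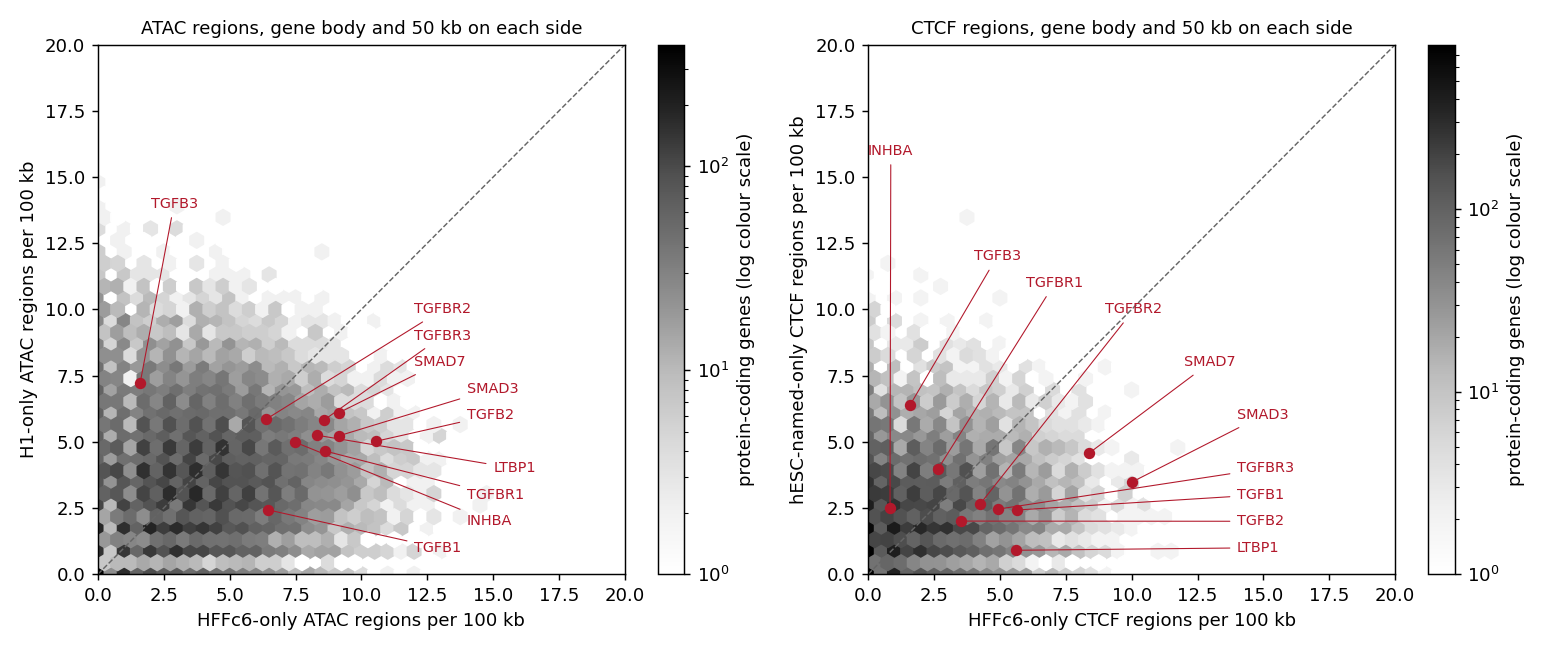
Regions of 1 list only per 100 kb of gene body and flanks, for ATAC (left) and CTCF (right), with HFFc6-only regions on the horizontal and H1-only or hESC-named-only regions on the vertical axis; grey hexagons count all protein-coding genes on a log colour scale, red points are the 10 TGF-beta genes and the dashed line marks equal densities. TGFB3 is the one red point above the line in the ATAC panel, and TGFB3, INHBA and TGFBR1 lie above it in the CTCF panel.

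Further genes of the superfamily and its pathway were counted in the same way. Of 47 ligand, receptor, SMAD and regulator genes, 19 (40.4%) had more HFFc6-only ATAC regions, against 48.4% of all protein-coding genes. More H1-only regions were found at 22 (46.8%), against 41.1%, and 6 had equal numbers, with a median difference of 0. With 12 textbook target genes added, the counts were 31 and 22 of 59. Of 11 other ligand genes, 2 had more HFFc6-only and 8 more H1-only regions, with the lowest difference at BMP2, a bone morphogenetic protein gene, which had 1 HFFc6-only and 12 H1-only regions, and BMP7 (7 and 15) and BMP6 (9 and 15) next. GDF11 had 7 HFFc6-only and 2 H1-only regions and INHBB had 9 and 7, the 2 largest differences of the group, and the starts of both were open in HFFc6 alone. GDF15 followed with 4 of each. Of 11 other receptor genes, 2 had more HFFc6-only and 8 more H1-only regions, with the lowest difference at ENG, the endoglin co-receptor, at 4 HFFc6-only and 12 H1-only regions. BMPR1B (17 and 22) and ACVR1 (16 and 20), both type I receptors, were next. The activin receptor genes ACVR2B (8 and 5) and ACVR2A (8 and 7) had more HFFc6-only regions, and AMHR2 had 2 of each. The receptors of TGF-beta itself had more HFFc6-only regions, by 6 at TGFBR1, by 1 at TGFBR2 and by 9 at TGFBR3. As given above, the direction at TGFBR2 is not settled, and the surplus at TGFBR1 lay outside the gene body.

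Of 6 other SMAD genes, 4 (66.7%) had more HFFc6-only regions and 1 (16.7%) had more H1-only regions. Over all protein-coding genes these shares were 48.4% and 41.1%, the background for the next groups as well. SMAD4, the common partner, had 12 HFFc6-only and 6 H1-only regions, SMAD5 had 11 and 5, and SMAD6, the other inhibitor, had 15 and 10. SMAD2, which acts beside SMAD3, had 11 and 9, and SMAD9 had 4 of each. SMAD1, which carries bone morphogenetic protein signals, had 7 HFFc6-only and 14 H1-only regions. Of 12 genes for latency, activation and extracellular control, 7 (58.3%) had more HFFc6-only and 4 (33.3%) more H1-only regions. The widest contrast was between integrin subunits that take part in TGF-beta activation. ITGB6 had 17 HFFc6-only and 7 H1-only regions, whereas ITGB8 had 0 HFFc6-only and 12 H1-only regions. The follistatin gene FST had 6 and 2, and LTBP2, LTBP4, NRROS and THBS1 each had 3 more HFFc6-only than H1-only regions. FSTL3 (2 and 7) and LTBP3 (8 and 11) had more H1-only regions, although their starts were open in HFFc6 alone. Of 7 intracellular regulators, 4 (57.1%) had more HFFc6-only and 1 (14.3%) more H1-only regions. SMURF2, a ubiquitin ligase that works with SMAD7, was highest at 18 HFFc6-only and 4 H1-only regions. SMURF1 had 13 and 5 and the repressor gene SKI 12 and 4, while SKIL and TGIF1 had equal numbers and PMEPA1 had 6 and 7.

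All 12 textbook target genes of TGF-beta had more HFFc6-only than H1-only ATAC regions, against 48.4% of all protein-coding genes, with a median difference of 5 regions, against 0. FN1, which encodes fibronectin, had 30 HFFc6-only and 3 H1-only regions. TGFBI had 20 and 7, the collagen gene COL1A2 had 19 and 6, and the smooth muscle actin gene ACTA2 had 16 and 3. The smallest differences, 1 region each, were at TAGLN, CDKN2B and ID1. COL1A1 and COL1A2 are also among the fibroblast markers used above, so these genes are no separate reading of the pathway. In CTCF regions, 9 of the 12 had more HFFc6-only, against 36.8% of all genes, and 3 had equal numbers.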

How the data were processed

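All 4 peak lists were used as deposited. The submitters' processing notes name hg38 as the build and BWA, MACS2 and bedtools as tools; their versions, filters, controls and any Tn5 offset of the reads are unknown here. Per the labels, the HFFc6 ATAC, H1 ATAC and HFFc6 CTCF lists are each named by every library of their group, so each was 1 call for the group. The authors' peak score, as deposited, was left out. Fold enrichment, as deposited, is the authors' ratio of a peak over the peak caller's background. The deposited −log10 q-value is the authors' and ends at a q of 0.05 in each list. Both served to rank, filter or describe peaks of a list, and their sizes are not comparable between lists; the deposited summit offset gave distances. Libraries for SMC1, H3K4me3 and H3K27ac (10 of 22) were not analysed here.

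Only peaks of the 22 autosomes and X entered. Gene bodies came from RefSeq's table of GRCh38 patch 14, and starts from its promoter table, which holds 22131 starts of 15811 of the 19970 protein-coding genes and 27 starts of all 10 members. It lacks INHBA's annotated 5′ end, so both were given. A start counted as occupied with a region within 1 kb. Named regions are, for each gene and class, the one of highest −log10 q, plus those at starts; named further genes are the 3 highest and 3 lowest differences of a group and those open at a start in 1 line. The members and lists were chosen with earlier results of these data known. Wilson intervals (95%) on shares treat regions as independent draws. No test was run, since the lists hold no replicates. Overlaps, checked against a direct comparison, gave 0 disagreements over 300 simulated regions. In a second check, copies of part of the HFFc6 ATAC regions were planted, and the 155746 regions of that list were searched against them. The regions found and the regions planted gave 0 disagreements. Python 3.11.15, pandas 2.3.3, numpy 2.4.6, scipy 1.17.1 and matplotlib 3.10.9 were used. Alternatives were a −log10 q of at least 10, 50% of a region covered, equal numbers of peaks, 500 bp around summits, the gene body with 0, 10 or 100 kb, and the nearest gene end. Leaving out LTBP1 and leaving out regions inside other genes were added after the data were seen.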

Additional observations from a re-analysis of the deposited data

How the results depend on the processing

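The number of genes with more HFFc6-only than H1-only ATAC regions ranged from 6 to 9 over 10 alternatives, with 9 under a −log10 q of at least 10, 50% coverage, equal numbers of peaks and 100 kb flanks, 7 in the gene bodies alone and 6 by nearest gene end. The limit on q keeps 85.2% of the HFFc6 and 48.4% of the H1 ATAC list, which favours HFFc6-only counts by construction. Of the 70 recomputed values of the main results, 63 stayed within their 95% interval or, for gene counts, within 1.5 times. That limit on the gene count admits a fall from 9 to 6 of 10, so it is a loose one. The share over all protein-coding genes was not recomputed under the alternatives, so they do not show whether the contrast with other genes holds. The 7 that moved were these. At a −log10 q of at least 10, 18.7% of HFFc6 ATAC regions were in H1, and with 50% of a region covered 10%. With 500 bp around summits, 31.25% of H1 ATAC regions were in HFFc6. With 50% covered, 20.4% of HFFc6 CTCF regions were in the hESC-named list and 49.5% of hESC-named regions in H1 ATAC. With equal numbers of peaks, 58.1% of hESC-named regions were in HFFc6 CTCF and 78.3% of HFFc6 CTCF regions in HFFc6 ATAC. The cause of these shifts was not tested, beyond the stricter overlap or the shorter lists themselves. Among single genes, the TGFBR2 difference reversed to -2 by nearest gene end. TGFB1, TGFB2, LTBP1 and SMAD3 moved to 9, 23, 37 and 19 under 1 alternative each, and TGFB3 was negative under all 10. The surplus fell to 0 at TGFB1 and INHBA by nearest gene end, at TGFB1 without regions inside other genes, at TGFBR1 and SMAD7 in the gene body alone, at TGFBR1 with 10 kb flanks, and at TGFBR2 with 500 bp around summits. Whether the surplus of HFFc6-only regions reflects 8 HFFc6 against 2 H1 ATAC libraries was not tested, and depth is unknown. No paired analysis was possible because each list is a single call and holds no values per replicate.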
